A study of Mus musculus with 2 samples.

Results

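The receptors and bridging ligands by which phagocytes take up dying cells were followed across the leukocytes of the mouse adrenal gland. The members were a given list of 6 genes, namely the receptors Mertk, Axl and Timd4 and the bridging proteins Gas6, Pros1 and Mfge8, out of 32285 genes counted in each library. All 6 were measured in both libraries and reached 50 unique molecular identifiers (UMIs, each marking 1 captured RNA molecule) in each. Live CD45+ cells were sorted from the digested adrenal glands of C57BL/6 J mice at 7 weeks of age, and female and male cells were each loaded as 1 droplet-based single-cell library. Sex is the one labelled difference between the groups, which share strain and age, and sex and library cannot be told apart. The number of mice behind each library was not given in the sources used here. Since each sex has 1 library, animal-to-animal spread is unknown, no p-values are given, and all intervals are 95% intervals for counting error only.

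Efferocytosis is the clearance of apoptotic cells, which display phosphatidylserine on their outer membrane. Axl and MerTK, with Tyro3, form the TAM family of receptor tyrosine kinases, which do not touch phosphatidylserine themselves and bind it through the bridging ligands Gas6 and protein S (Pros1). Tim-4 (Timd4) binds phosphatidylserine directly and tethers the dying cell, while Mfge8 bridges it to integrins. Tim-4 is widely used as a surface marker of long-lived resident macrophages, and MerTK as a marker that separates tissue macrophages from monocytes and dendritic cells.

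The female library held 3963 barcodes with 16218309 UMIs and the male library 2685 barcodes with 9512670 UMIs, of which 3694 and 2449 cells were kept. The kept cells had a median of 3489.5 and 3008 UMIs. Xist had 23396 and 6 UMIs and Y-linked genes 7 and 1686, as the sex labels state, and 2 barcodes occurred in both libraries. Classes were rebuilt from clusters named by canonical markers, with the members themselves held out of the clustering, so names and boundaries may differ from those of the study. Macrophage-like cells numbered 815 in the female and 791 in the male library. They comprised 91 and 163 Lyve1-high cells (Lyve1, Folr2, Cbr2, Fcna, Cd209f), 88 and 100 Aldh1a2-high cells (Aldh1a2, Retnla, Fn1, Lyz1) and 636 and 528 other macrophages. All 9 macrophage markers were present in each macrophage class, but their summed level in Aldh1a2-high cells was 4479 and 3776 CPM (counts per 1000000 UMIs of the class), against 53625 and 42163 CPM in other macrophages, so these cells carry the name from the Aldh1a2 list alone. The Aldh1a2-high markers also summed to 13090.4 and 10369 CPM in Lyve1-high cells, against 109 and 145 CPM in other macrophages. Monocyte-like cells numbered 298 and 180, dendritic cells (DCs) 182 and 127, B cells 515 and 267, T cells 667 and 361, NK cells 874 and 372, and endothelial-like cells 45 and 50. Endothelial cells should not pass a CD45 gate, and their cluster was mixed: the macrophage markers summed to 9234 and 9790 CPM in it, the cortical cell markers to 2121 and 1483 CPM, and the 7 fibroblast markers to 18.9 CPM (3 UMIs) in the female but 733 CPM (135 UMIs) in the male library.

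Among the named classes Timd4 and Gas6 were both highest in Lyve1-high macrophages, and the sequence upstream of each start is shown because these 2 genes carry the subset pattern described below. Timd4 lies at chr11:46810800-46844332 on the plus strand and Gas6 at chr8:13465374-13494490 on the minus strand (GRCm38, the build also called mm10). The 250 bases before the RefSeq start of each (GRCm38.p6; chr11:46810549-46810798, plus strand, and chr8:13494536-13494785, minus strand) read, 5′ to 3′, with motif matches in capitals:
Timd4: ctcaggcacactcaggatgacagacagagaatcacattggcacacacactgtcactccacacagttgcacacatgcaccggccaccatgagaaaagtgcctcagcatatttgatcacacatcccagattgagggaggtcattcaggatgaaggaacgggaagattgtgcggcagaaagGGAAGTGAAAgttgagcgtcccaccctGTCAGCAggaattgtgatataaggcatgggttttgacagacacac
Gas6: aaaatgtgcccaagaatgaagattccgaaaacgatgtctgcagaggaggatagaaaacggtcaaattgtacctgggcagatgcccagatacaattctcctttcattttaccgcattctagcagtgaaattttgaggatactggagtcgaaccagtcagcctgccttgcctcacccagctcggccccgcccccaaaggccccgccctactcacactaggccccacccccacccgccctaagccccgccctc
In these windows 3 motifs of macrophage transcription factors were searched on both strands, namely an ETS-IRF composite (GGAA followed 2 bases later by GAAA), the PU.1 word GAGGAAG, which shares the GGAA core with the composite, and the MAF half-site TGCTGAC. The Timd4 window held the composite at 72 to 63 bases before the start on the gene's strand and a MAF half-site at 45 to 39 bases before it on the opposite strand. Of 32851 RefSeq promoter windows of the same length, 2.301% held the composite, 10.61% the PU.1 word and 3.811% the MAF half-site. The Gas6 window held none of these letters, nor did those of Mertk, Pros1 and Mfge8, and the Axl window held the PU.1 word on the opposite strand at 131 to 125 bases before the start. The windows ranged in GC content from 50% for Timd4 to 65.2% for Mfge8. These matches describe letters, and no factor binding was measured.

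**Figure D1:**
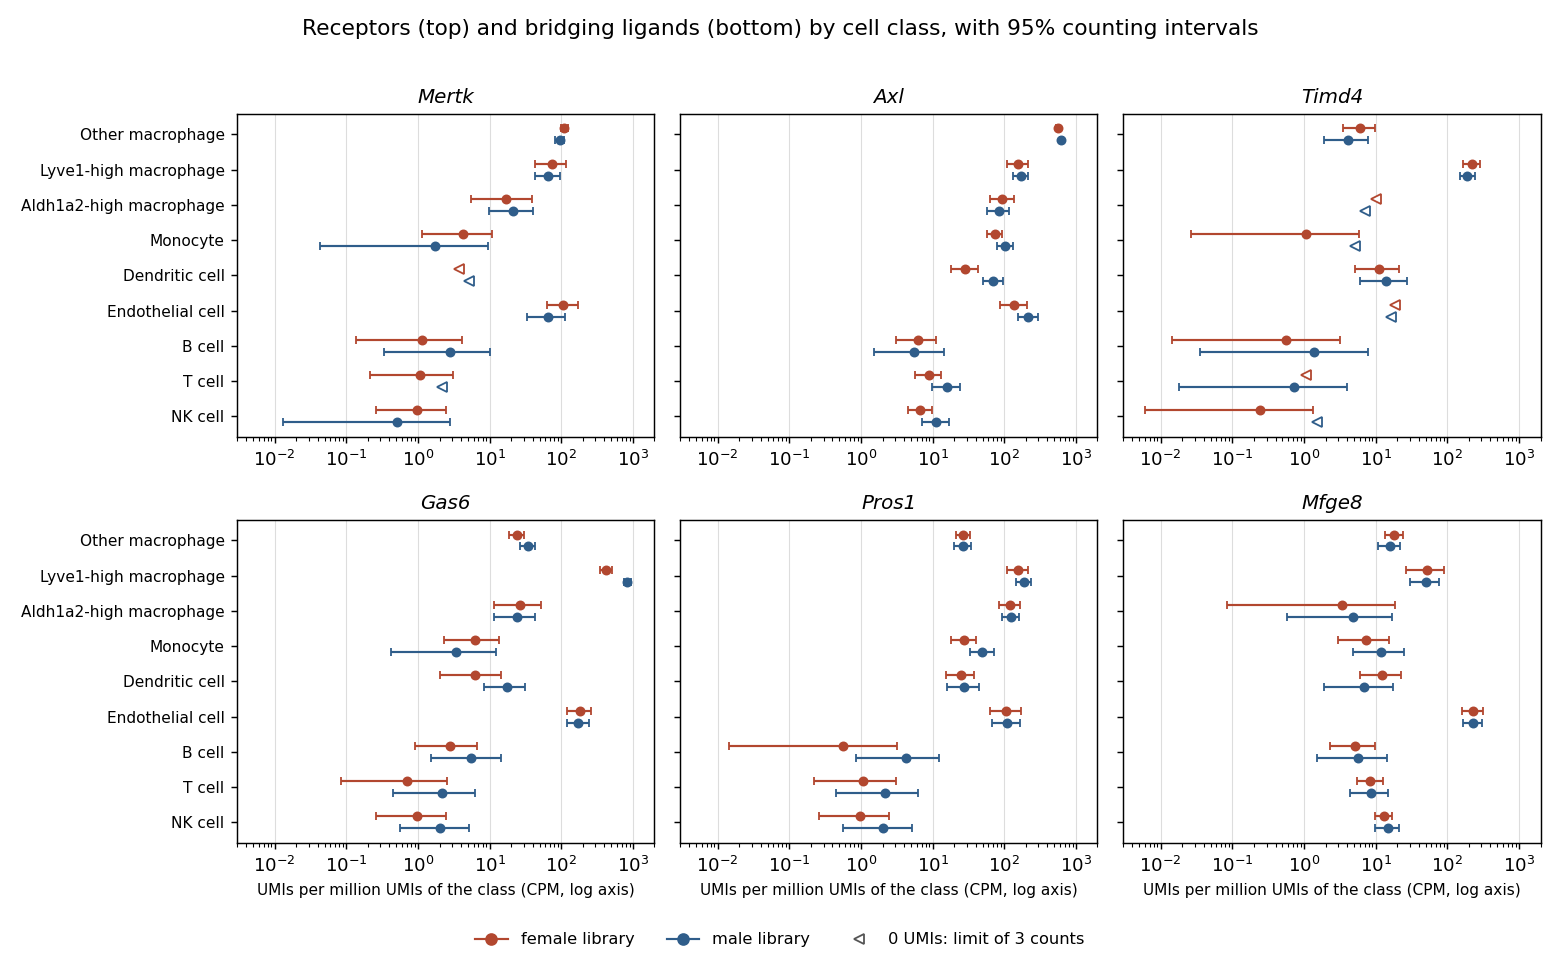
Level of each receptor (top) and bridging ligand (bottom) in 9 cell classes, in CPM (log axis), female library in red and male in blue. Points are summed levels with exact Poisson 95% intervals, and open triangles mark the limit of 3 counts where 0 UMIs were counted. Among these classes Axl was highest in other macrophages, Timd4 and Gas6 in Lyve1-high macrophages and Mfge8 in endothelial-like cells, in both libraries.

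Mertk, the TAM receptor of resting tissue macrophages (ENSMUSG00000014361, chr2:128698956-128802894, plus strand), was read at 110.5 CPM (98.5 to 123) in female and 94.6 CPM (82.1 to 109) in male other macrophages. Its level in Lyve1-high cells was 73.2 CPM (17 UMIs) and 65.5 CPM (25 UMIs). The intervals of the 2 classes overlapped in each library, with a ratio of Lyve1-high to other macrophages of 0.66 (0.38 to 1.08) in the female and 0.69 (0.44 to 1.05) in the male library. Aldh1a2-high cells held less Mertk, at 16.8 CPM (5 UMIs) and 21.4 CPM (9 UMIs). Monocytes had 4 and 1 UMIs, and no Mertk UMI was counted in 182 female and 127 male DCs, where the limits that a count of 0 allows (3 counts) were 3.73 and 5.17 CPM. Other and Lyve1-high macrophages thus lay above monocytes and DCs in Mertk in both libraries, whereas the female interval of Aldh1a2-high cells overlapped that of monocytes. Endothelial-like cells, at 107 and 65.2 CPM, overlapped other and Lyve1-high macrophages, and lymphocyte levels were between 0 and 2.79 CPM. A Mertk UMI was seen in 32.2% and 25.6% of other macrophages, against 0.343% and 0.269% of NK cells. After thinning each cell to 1000 UMIs the shares in other macrophages were 9.27% and 8.05%. The antisense gene Gm14011, which overlaps Mertk, had no UMI in other macrophages, Lyve1-high cells or endothelial-like cells.

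Within other macrophages, Mertk varied between the 3 clusters that make up the class. Cluster 9 (Ms4a7, Slc40a1, Trem2) held 145 CPM in the female and 177 CPM in the male library, cluster 3 (C1qa, Tmem119) 113 and 84.2 CPM, and cluster 6 (Wfdc17, Aif1) 61.4 and 27.9 CPM. The ratio of cluster 9 to cluster 3 was 1.29 (0.99 to 1.66) and 2.11 (1.57 to 2.82), and that of cluster 6 to cluster 3 was 0.54 (0.36 to 0.79) and 0.33 (0.17 to 0.59). The order of the 3 clusters was the same in both libraries, but cluster 6 was also the shallowest, with a median of 2378 and 1952 UMIs per cell. A gene was called between classes when it differed 2-fold or more in the same direction in both libraries, having at least 50 UMIs on 1 side in each. Of the members, 2 could be tested between these clusters and neither was called, where 0.463% of 3239 genes were higher and 0.525% lower in cluster 9 than in cluster 3, and 0.185% of 3236 genes were higher and 6.8% lower in cluster 6 than in cluster 3. Over all genes tested, the median log2 ratio to cluster 3 was -0.31 and -0.29 in cluster 6 and -0.10 and -0.05 in cluster 9. The part of this general shift in the Mertk ratios was not tested.

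Axl, the TAM receptor that depends on Gas6 as its ligand (ENSMUSG00000002602, chr7:25757273-25788705, minus strand), was read at 556 CPM (529 to 584; 1565 UMIs) in female and 629 CPM (596 to 664; 1363 UMIs) in male other macrophages. It was detected in 80.7% and 83.3% of the class, and in 43.8% and 48.7% after thinning. Single cells reached 14 and 17 Axl UMIs, and 17.0% and 18.4% of other macrophages held 5 or more. The 3 clusters of the class lay close together, between 467 and 595 CPM in the female and between 575 and 673 CPM in the male library. Lyve1-high cells held 155 and 170.4 CPM, endothelial-like cells 138 and 217 CPM and Aldh1a2-high cells 93.9 and 83.2 CPM. Monocytes held 74.5 and 103 CPM, with more in cluster 7 (87.7 and 125 CPM) than in cluster 14 (21.1 and 34.3 CPM). The unnamed cluster 11, of low UMI count and with macrophage markers, held more Axl (812 and 1008 CPM) and more Mertk (310.5 and 254 CPM) than any named class. The step from other macrophages to the next named class exceeded the counting intervals in both libraries, while the intervals of Aldh1a2-high cells and monocytes overlapped. Tyro3, the remaining TAM receptor, had 0 and 3 UMIs in all macrophages, so Axl and Mertk made up nearly all TAM receptor RNA counted there. Axl in DCs was at 28.6 and 70.6 CPM and lymphocytes at 5.58 to 15.8 CPM, and a UMI was seen in 2.52% and 5.65% of NK cells.

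Timd4, the phosphatidylserine receptor that tethers dying cells (ENSMUSG00000055546), was carried by Lyve1-high macrophages at 219 CPM (163 to 289; 51 UMIs) in the female and 191 CPM (150.0 to 241; 73 UMIs) in the male library. Other macrophages held 6.04 CPM (17 UMIs) and 4.16 CPM (9 UMIs). No Timd4 UMI was counted in Aldh1a2-high cells, where the limits of 3 counts were 10.1 and 7.13 CPM, nor in endothelial-like cells. A UMI was detected in 23.1% and 27.0% of Lyve1-high cells, and in 0.114% and 0% of NK cells. The female level rested on few cells, since 5 cells held 60.8% of its UMIs and 1 cell held 16, whereas 5 cells held 31.5% in the male library. Outside macrophages, Timd4 was counted in the Xcr1 and Clec9a DC cluster 19, at 39.6 CPM (9 UMIs) and 39.5 CPM (8 UMIs), and had no UMI in the other DC cluster 10. The difference between the DC clusters was at least 7.62-fold and 4.98-fold, computed against a floor of 3 counts in cluster 10 of each library. Lyve1-high macrophages, and at a lower level cluster 19 DCs, were thus the named groups that stood above the other macrophages in Timd4 in both libraries.

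Gas6, the TAM ligand that binds Axl and MerTK (ENSMUSG00000031451), was highest in Lyve1-high macrophages, at 426 CPM (346 to 519; 99 UMIs) in the female and 831 CPM (742 to 928; 317 UMIs) in the male library. Endothelial-like cells came next with 183 CPM (29 UMIs) and 174 CPM (32 UMIs). Other macrophages held 24.2 and 34.2 CPM, Aldh1a2-high cells 26.8 and 23.8 CPM and monocytes 6.29 and 3.42 CPM. The intervals of Lyve1-high, endothelial-like and other macrophage classes did not overlap in either library, but female endothelial-like cells with UMIs of fewer than 3 macrophage markers were at 266 CPM (163 to 411), which overlapped the Lyve1-high interval. The share of Lyve1-high cells with a Gas6 UMI was 51.6% and 69.9%, and 41.7% and 58.0% after thinning, against 0.458% and 1.08% of NK cells. Cells with 5 or more Gas6 UMIs made up 3.30% of female and 11.7% of male Lyve1-high cells. The 9 endothelial markers summed to 68.9 and 65.5 CPM in Lyve1-high cells and to 67.1 and 80.8 CPM in other macrophages. The 9 adrenal cortical cell markers moved with Gas6, at 508 and 461 CPM in Lyve1-high cells against 267 and 264 CPM in other macrophages. So did the 10 DC markers, at 2040 and 2339 CPM against 498 and 785 CPM in other macrophages and 1567 and 2081 CPM in the DCs themselves, with Xcr1, Flt3 and Ccr7 at 0 in Lyve1-high cells of both libraries, and the 7 neutrophil markers, at 327 and 516 CPM against 236 and 114 CPM. The 8 innate lymphoid cell markers moved as well, at 116 and 73.4 CPM against 16.3 and 11.5 CPM. Of these, Gata3, Il13, Il5, Areg and Il17rb were at 0 in Lyve1-high cells of both libraries. The part of these lists in the Gas6 level was not tested. Tmem255b, which overlaps Gas6 on the opposite strand, had no UMI in either macrophage class.

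Pros1, which encodes protein S, the ligand shared by the TAM receptors Tyro3 and MerTK (ENSMUSG00000022912, chr16:62854307-62929346, plus strand), was spread over more classes. It was read at 155 CPM (36 UMIs) and 189 CPM (72 UMIs) in Lyve1-high cells, at 121 CPM (36 UMIs) and 124 CPM (52 UMIs) in Aldh1a2-high cells and at 107 CPM (17 UMIs) and 109 CPM (20 UMIs) in endothelial-like cells. The intervals of these 3 levels overlapped, but the ratio of Lyve1-high to Aldh1a2-high cells, 1.28 (0.79 to 2.10) in the female library, was 1.53 (1.05 to 2.22) in the male, above 1. Other macrophages held 26.6 and 26.3 CPM, DCs 24.8 and 27.6 CPM and lymphocytes 0.565 to 4.19 CPM. Monocytes were at 27.3 CPM (26 UMIs) in the female and 49.6 CPM (29 UMIs) in the male library, and in the male cluster 14 monocytes 14 UMIs gave 96.2 CPM against 10.6 CPM from 2 UMIs in the female. A Pros1 UMI was found in 30.8% and 31.9% of Lyve1-high cells and in 31.8% and 36.0% of Aldh1a2-high cells.

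Mfge8, the milk fat globule protein that bridges phosphatidylserine to integrins (ENSMUSG00000030605, chr7:79133768-79149060, minus strand), was highest among the named classes in endothelial-like cells, at 227 CPM (36 UMIs) and 228 CPM (42 UMIs), with a UMI in 46.7% and 50% of cells. Lyve1-high cells held 51.6 CPM (12 UMIs) and 49.8 CPM (19 UMIs). Other macrophages were at 18.1 CPM (13.5 to 23.8) and 15.7 CPM (10.9 to 21.9), which overlapped NK cells at 13.1 and 14.7 CPM. T cells held 8.44 and 8.60 CPM and B cells 5.09 and 5.58 CPM. The Mfge8 level of other macrophages did not exceed that of NK cells beyond counting error in either library. In endothelial-like cells with UMIs of fewer than 3 of the 9 macrophage markers, 31 and 33 cells, the Mfge8 level was 346 and 309 CPM and that of Gas6 266 and 250 CPM. In the cells with 3 or more of these markers Mfge8 was at 119 and 160.0 CPM. Axl in the former cells was 13.3 CPM from 1 UMI in the female and 214 CPM from 18 UMIs in 2 cells of the male library, against 138 and 217 CPM in the cluster as a whole.

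**Figure D2:**
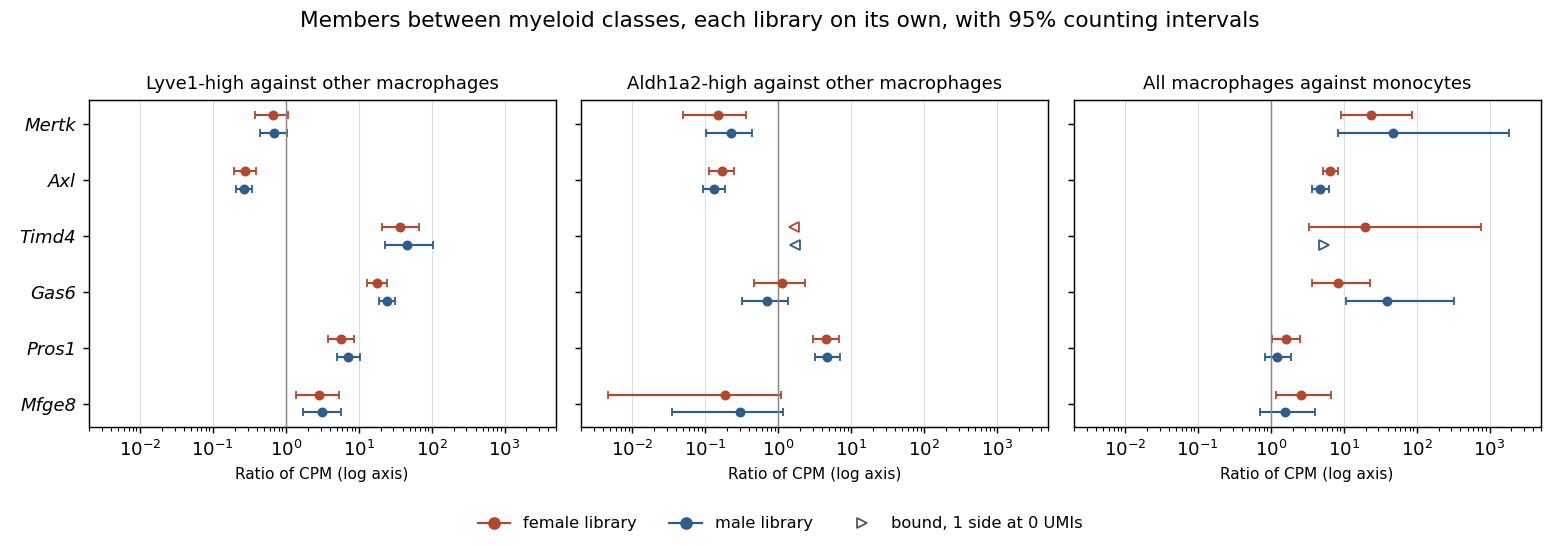
Ratio of CPM (log axis) for each member between Lyve1-high and other macrophages, Aldh1a2-high and other macrophages, and all macrophages and monocytes, in the female (red) and male (blue) library. Bars are exact 95% counting intervals, and open triangles are bounds where 1 side had 0 UMIs. In Lyve1-high cells Timd4, Gas6, Pros1 and Mfge8 lay above 1 and Axl below 1, while the Mertk intervals included 1.

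Lyve1-high macrophages differed from other macrophages in 4 of the 5 members that could be tested, with the ligands and Timd4 higher and Axl lower. The ratio was 36.3 (20.6 to 67.1) and 46.1 (23.0 to 105) for Timd4. It was 17.6 (12.8 to 24.4) and 24.3 (18.8 to 31.8) for Gas6. For Pros1 it was 5.82 (3.80 to 8.76) and 7.17 (5.00 to 10.3). These 3 members were called higher, where 5.71% of 5094 genes were. Gas6 and Pros1 reached the minimum for the test in other macrophages. Timd4 reached it only in Lyve1-high cells, with 51 and 73 UMIs against 17 and 9 in other macrophages. It thus entered through the class where it was high, and its call adds nothing to its ratio. Axl was the 1 member called lower, with ratios of 0.28 (0.19 to 0.39) and 0.27 (0.21 to 0.35), where 5.99% of genes were. Lyve1-high cells held 36 female and 65 male Axl UMIs, so in the female library Axl reached the minimum only in other macrophages. It entered there through the class where it was high, and its call likewise adds nothing to its ratio. Mfge8, which had too few UMIs to be tested in the male library, gave 2.85 (1.38 to 5.42) and 3.17 (1.71 to 5.72). The classes differed in depth, with a median of 1721 and 1877 UMIs per cell in Lyve1-high against 3940.5 and 3403.5 in other macrophages, and in mitochondrial share, with a median of 5.47% and 5.82% against 2.93% and 2.82%. When classes were instead set by each cell's own markers, the Axl ratio was 0.97 (0.86 to 1.10) and 0.58 (0.50 to 0.68) and its call was lost, and the Mertk ratio was 1.87 (1.48 to 2.35) and 0.89 (0.64 to 1.23).

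The wider efferocytosis machinery was compared between the same subsets. Of 54 further genes in 4 lists (recognition receptors, bridging proteins and eat-me or don't-eat-me signals, engulfment machinery, and degradation and lipid response), 34 could be tested, and 2 were higher and 8 lower in Lyve1-high cells, where 5.71% of all genes tested were higher and 5.99% lower. Their median difference was 0.06 on the log2 scale, against 0.01 and -0.02 over all genes tested in the female and male library. Other macrophages held more UMIs (2815703 and 2165927, against 232384 and 381426 in Lyve1-high cells). A gene low in Lyve1-high cells could thus enter through other macrophages, and the counts of calls cannot show a direction among these genes. The scavenger receptor Cd36 rose to 1192 and 1749 CPM from 314 and 520.3 CPM, a ratio of 3.80 (3.31 to 4.36) and 3.36 (3.05 to 3.70). Dock2, a guanine nucleotide exchange factor for Rac, was 3.01 (2.30 to 3.89) and 2.35 (1.83 to 3.00) times as high. Among recognition receptors, 1 of 10 was higher and 4 were lower, and among engulfment genes 1 of 10 was higher and 1 lower. Tim-3 (Havcr2), another phosphatidylserine receptor of the Tim family, fell to 1 UMI in the female and 0 UMIs in the male library, against 78.8 and 83.1 CPM in other macrophages. The integrin subunit Itgb5 was at 34.4 and 47.2 CPM against 372 and 333 CPM. Galectin-3 (Lgals3), which can opsonize cells for MerTK, had ratios of 0.33 (0.26 to 0.42) and 0.22 (0.18 to 0.27). The lipid exporter Abcg1 was lower as well, at 0.41 (0.21 to 0.72) and 0.23 (0.11 to 0.42). Its relative Abca1 was higher in Lyve1-high cells, with ratios of 1.70 (1.23 to 2.30) and 3.44 (2.78 to 4.24), and was not called.

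Aldh1a2-high cells had a different make-up, with both TAM receptors low and 1 ligand high. Of 4 members tested, Mertk and Axl were called lower, with ratios to other macrophages of 0.15 (0.05 to 0.36) and 0.23 (0.10 to 0.44) for Mertk and 0.17 (0.11 to 0.25) and 0.13 (0.09 to 0.18) for Axl, where 11% of 5105 genes were lower. Aldh1a2-high cells held 5 and 9 Mertk UMIs and 28 and 35 Axl UMIs. Mertk and Axl thus reached the minimum only in other macrophages, where they were high, and their calls add nothing to their ratios. Pros1 was called higher, at 4.53 (2.96 to 6.83) and 4.70 (3.16 to 6.97), where 6.62% of genes were higher. Gas6 gave 1.11 (0.46 to 2.31) and 0.70 (0.32 to 1.35), and all 8 female UMIs came from 2 cells. Against the Aldh1a2-high cells, Lyve1-high cells were called higher in Gas6 and Timd4, both of the members that could be tested, where 11.7% of 980 genes were higher and 9.9% lower. Both reached the minimum for the test only in Lyve1-high cells, since Aldh1a2-high cells held 8 and 10 Gas6 UMIs and 0 Timd4 UMIs. A member low in Lyve1-high cells had no such way in, so the count of calls cannot show a direction among the members. Gas6 was 15.9 (7.76 to 37.8) and 35.0 (18.8 to 73.6) times as high, and Timd4 at least 21.8-fold and 26.8-fold higher, against a floor of 3 counts per library. Of the 54 pathway genes, 35 could be tested between Aldh1a2-high and other macrophages, and 3 were higher and 7 lower, with a median of -0.10 on the log2 scale against -0.05 over all genes tested in each library. Other macrophages held more UMIs here too, so the counts of calls cannot show a direction among these genes. Annexin A1 (Anxa1), a phosphatidylserine-binding protein, was 7.99 (5.47 to 11.6) and 14.9 (9.59 to 23.8) times as high. The adaptor Elmo2 was 4.99 (3.04 to 8.03) and 4.02 (2.57 to 6.23) times and Dock2 3.29 (2.61 to 4.13) and 2.97 (2.38 to 3.70) times as high. Elmo and Dock proteins act together to activate Rac during engulfment. Itgb5, at 30.2 and 16.6 CPM, and Havcr2, at 6.70 and 4.76 CPM, were lower here too. The summed level of the macrophage markers was also low in this class, as given above, and lay below that of monocytes (5415 and 5102 CPM). The part of that in the receptor levels was not tested.

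Macrophages as a whole were compared with monocytes, the circulating cells from which some tissue macrophages arise. All 6 members could be tested, and 4 were called higher, where 8.96% of 6202 genes were, with none lower, where 4.45% were. Only Axl reached the minimum for the test in monocytes too, at 71 and 60 UMIs. Mertk, Gas6 and Timd4 entered through macrophages, where they were higher and which held more UMIs (3346392 and 2967912, against 953448 and 584873). The counts of calls therefore add nothing to the ratios that follow. Mertk was at 99.5 and 80.5 CPM, a ratio of 23.7 (9.18 to 87.6) and 47.1 (8.37 to 1868), the latter resting on 1 monocyte UMI. Axl, at 487 and 493 CPM, gave 6.54 (5.15 to 8.41) and 4.81 (3.71 to 6.33). Gas6 gave 8.31 (3.74 to 23.0) and 39.5 (10.9 to 327), with 6 and 2 monocyte UMIs, and Timd4 19.4 (3.36 to 776) in the female and at least 5.39-fold in the male library. Pros1 gave 1.61 (1.06 to 2.55) and 1.23 (0.83 to 1.89), and Mfge8 2.60 (1.19 to 6.74) and 1.55 (0.70 to 4.03). With other macrophages alone against monocytes, Pros1 was at 0.98 (0.62 to 1.59) and 0.53 (0.33 to 0.86). Both ratios were then below 1, and only the male interval excluded 1. Gas6 was at 3.84 (1.67 to 10.8) and 9.99 (2.67 to 84.0). Timd4 then had 17 and 9 macrophage UMIs, too few to be tested, while Mertk and Axl remained higher, at 26.3 (10.2 to 97.2) and 55.4 (9.83 to 2197) for Mertk and 7.46 (5.88 to 9.61) and 6.13 (4.74 to 8.08) for Axl. Of 38 pathway genes tested, 5 were higher and 5 lower in macrophages, with a median of -0.09 on the log2 scale against 0.04 and 0.05 over all genes tested. Stabilin-1 (Stab1), a scavenger receptor for phosphatidylserine, rose 10.4-fold (7.72 to 14.5) and 16.0-fold (9.64 to 28.6). The cholesterol exporter Abca1 was 5.19 (3.38 to 8.38) and 4.23 (2.67 to 7.10) times as high. The phosphatidylserine receptor Cd300lb was lower, at 0.31 (0.23 to 0.42) and 0.23 (0.16 to 0.31), as was Anxa1 at 0.25 (0.20 to 0.32) and 0.29 (0.22 to 0.39).

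Endothelial-like cells held more of the ligands and less Axl than other macrophages. Of 4 members tested, Gas6, at 7.56 (4.72 to 11.8) and 5.09 (3.25 to 7.80), and Pros1, at 4.02 (2.22 to 6.87) and 4.13 (2.35 to 6.98), were called higher, where 7.7% of 5127 genes were. Axl was called lower at 0.25 (0.16 to 0.38) and 0.35 (0.25 to 0.47), where 7.29% were. With 22 and 40 UMIs in endothelial-like cells, Axl reached the minimum only in other macrophages, where it was high. Its call thus adds nothing to its ratio. Mfge8, too thinly counted for a call in the male library, gave 12.5 (7.93 to 19.5) and 14.5 (9.03 to 23.6). Mertk gave 0.97 (0.56 to 1.58) and 0.69 (0.35 to 1.23), and its level in cells with fewer than 3 macrophage markers was 107 and 71.4 CPM, close to that of the cluster. Of 34 pathway genes tested, 4 were higher, among them the lipoprotein receptor Scarb1 at 4.78 (2.91 to 7.57) and 3.01 (1.81 to 4.80) and the don't-eat-me signal Cd47 at 2.51 (2.06 to 3.02) and 2.52 (2.10 to 3.01), and 7 were lower. Other macrophages held more UMIs than this cluster, so these counts cannot show a direction among the pathway genes. The part of the macrophage and cortical cell RNA in this cluster in these levels was not tested beyond the split by macrophage markers.

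**Figure D3:**
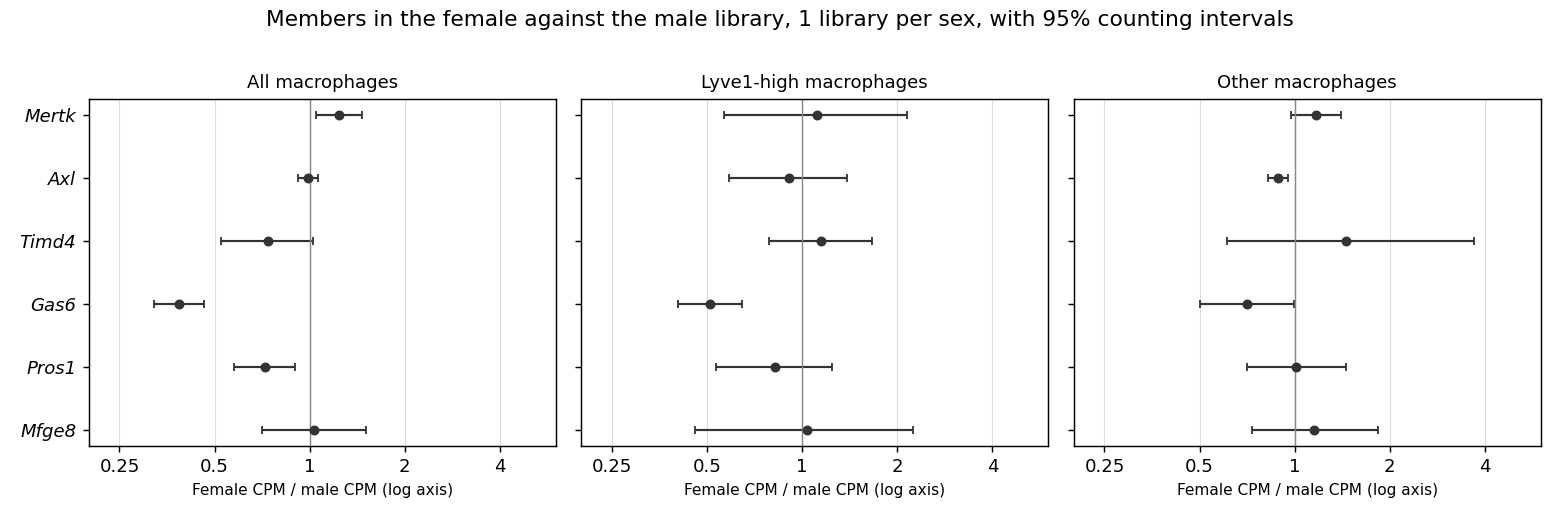
Ratio of female to male CPM (log axis) for each member in all macrophages, Lyve1-high macrophages and other macrophages, with exact 95% counting intervals from 1 library per sex. Gas6 lay below 1 in all 3 panels, and Axl was at 0.99 in all macrophages and 0.88 in other macrophages.

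The study asked how adrenal gland macrophages differ between the sexes, and among the members the difference over all macrophages was largest for Gas6. Over all macrophages Gas6 was at 52.3 CPM (44.8 to 60.6) in the female and 135 CPM (122 to 149) in the male library, a ratio of 0.39 (0.32 to 0.46). It was the 1 of 6 members past 1.5-fold lower, where 3.84% of 6842 genes were, and no member was past 1.5-fold higher, where 2.63% were. Lyve1-high cells, which held 99 of 175 female and 317 of 401 male macrophage Gas6 UMIs, were 91 of 815 female and 163 of 791 male macrophages. Within Lyve1-high cells the ratio was 0.51 (0.40 to 0.64), and Gas6 was the 1 of 4 members tested that was past 1.5-fold lower, where 9.7% of 1186 genes were and 2.28% were higher. In other macrophages, at 24.2 and 34.2 CPM, the ratio was 0.71 (0.5 to 1.0), and in endothelial-like cells it was 1.05 (0.61 to 1.79). Under the mitochondrial ceiling of 1.2% stated for the study, which leaves 60 female and 94 male macrophages with 5 and 2 Lyve1-high cells among them, the direction over all macrophages was the opposite, at 4.07 (1.44 to 13).

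The genes that define the Lyve1-high class were lower in the same direction as Gas6. All 8 of its markers were lower in female than in male Lyve1-high cells, with ratios between 0.32 for Fcna and 0.77 for Cbr2 and a median of 0.63, and all 8 intervals lay under 1. The markers summed to 6653 CPM in female and 10629 CPM in male Lyve1-high cells. The part of this shift in the Gas6 level was not tested. Timd4 and Pros1, both called higher in this class than in other macrophages, had female to male ratios of 1.15 (0.79 to 1.66) and 0.82 (0.53 to 1.24). When Lyve1-high cells were divided by their MHC class II level, the Gas6 ratio was 0.21 (0.12 to 0.36) in the 15 female and 34 male cells of low level and 0.71 (0.53 to 0.93) in the 57 and 97 cells of high level. Near the boundary, between 7 and 14 UMIs, lay 3 female and 18 male cells, so the male groups depend on where it is set.

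**Figure D4:**
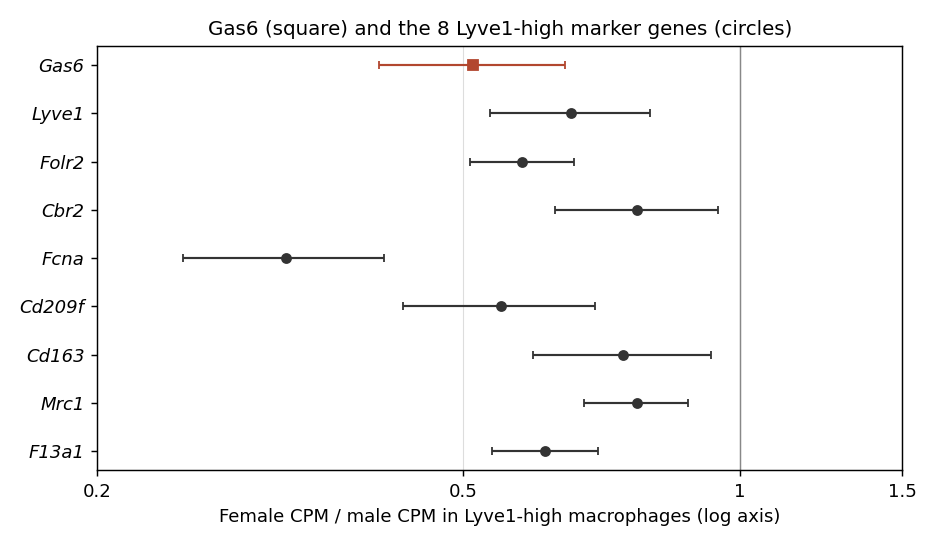
Ratio of female to male CPM (log axis) in Lyve1-high macrophages for Gas6 (square) and the 8 marker genes of that class (circles), with exact 95% counting intervals. All 9 ratios lay under 1, from 0.32 to 0.77.

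The TAM receptors were not past 1.5-fold between the libraries in all macrophages, Lyve1-high cells or other macrophages, each taken by cluster. Mertk was at 99.5 CPM in female and 80.5 CPM in male macrophages, a ratio of 1.24 (1.04 to 1.47). In other macrophages it was 1.17 (0.98 to 1.40), where 5 members could be tested and none was past 1.5-fold in either direction, against 4.24% of 6017 genes higher and 2.58% lower. By cluster, the Mertk ratio was 1.34 (1.05 to 1.73) in cluster 3, 2.20 (1.13 to 4.56) in cluster 6 and 0.82 (0.61 to 1.10) in cluster 9. Axl was even over all macrophages, with a ratio of 0.99 (0.92 to 1.06), and 0.88 (0.82 to 0.95) in other macrophages. With classes set by each cell's markers instead, Mertk in Lyve1-high cells was 1.94 (1.37 to 2.78) times as high in the female library and Pros1 at 0.53 (0.37 to 0.76), both then past 1.5-fold, as were Pros1 over all macrophages, at 0.64 (0.52 to 0.79), and Gas6 in other macrophages, at 0.64 (0.45 to 0.92). In DCs, where Axl was low, the ratio was 0.40 (0.23 to 0.69) from 23 and 41 UMIs. Pros1 gave 0.72 (0.58 to 0.90) over all macrophages and 1.01 (0.71 to 1.45) in other macrophages, and Mfge8 1.03 (0.71 to 1.51) over all macrophages. Of 38 pathway genes tested over all macrophages, 1 was past 1.5-fold higher in the female library (Cd300lf at 1.56, 1.21 to 2.04) and 1 lower (Cd36 at 0.57, 0.53 to 0.61), where 2.63% of all genes tested were higher and 3.84% lower, and their median was -0.07 on the log2 scale against -0.04 over all genes tested.

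MHC class II, which presents antigen to T cells, varied among the macrophages, and over all of them cells of low level were more frequent in the female library. In cells thinned to 1000 UMIs, a boundary at 10 UMIs summed over Cd74, H2-Ab1, H2-Aa and H2-Eb1 put 187 of 776 female macrophages (24.1%) and 54 of 747 male macrophages (7.23%) on the low side, with 60 and 32 cells between 7 and 14 UMIs, near the boundary. Among all macrophages, 4 members (Mertk, Axl, Gas6 and Pros1) had enough UMIs to be tested and none was past 1.5-fold in the same direction in both libraries, where 2.93% of 5421 genes were higher in low cells and 1.53% lower. Timd4 was at 42.0 CPM in low and 11 CPM in high cells of the female library, and at 241 and 14.4 CPM in the male, ratios of 3.83 (2.26 to 6.55) and 16.8 (10.5 to 26.8). Mfge8 gave 2.45 (1.44 to 4.14) and 3.28 (1.33 to 7.06), and both genes were past 1.5-fold in each library but had under 50 UMIs on each side, below the minimum for the test. Pros1 gave 0.88 (0.58 to 1.32) in the female and 3.16 (2.00 to 4.83) in the male library, and Axl 1.11 (0.99 to 1.24) and 0.64 (0.48 to 0.85). Mertk gave 1.68 (1.33 to 2.11) in the female and 1.02 (0.54 to 1.79) in the male library, and Gas6 0.97 (0.67 to 1.39) in the female and 8.01 (6.40 to 9.99) in the male library. Within Lyve1-high cells the low share was not higher in the female library, at 20.8% against 26.0% in the male. The low side was made up differently, with Lyve1-high cells forming 34 of 54 low cells in the male and 15 of 187 in the female library, and the part of that in these ratios was not tested.

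Among other macrophages alone, 167 of 626 female and 19 of 522 male cells were on the low side, with 49 and 7 cells near the boundary. Mertk was then 1.52 (1.2 to 1.93) times as high in low cells of the female library (147 against 96.5 CPM) and 1.70 (0.80 to 3.19) times in the male (158 against 92.9 CPM, from 10 and 195 UMIs). The male interval included 1. Mertk was the 1 of 3 members tested that was past 1.5-fold, where 3.84% of 4511 genes were higher and 1.11% lower. Axl was even between the sides, with 1.05 (0.94 to 1.18) and 1.11 (0.8 to 1.5). Of 29 pathway genes tested, the scavenger receptors Stab1 and Lrp1 were higher in low cells, Stab1 at 2.44 (2.20 to 2.71) and 1.94 (1.43 to 2.58) and Lrp1 at 1.76 (1.49 to 2.07) and 3.06 (2.06 to 4.40), and none was lower.

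Receptors and ligands were also counted within single cells, which describes detection and depends on depth. Among other macrophages, Mertk and Axl were detected together in 178 of 636 cells of the female and 121 of 528 cells of the male library. A UMI of at least 1 TAM receptor together with one of Gas6 or Pros1 was found in 101 of these 636 cells and 98 of these 528 cells. After thinning to 1000 UMIs, Mertk with Axl was seen in 24 of 626 and 20 of 522 other macrophages, and a TAM receptor with a ligand in 14 and 16 of them. In Lyve1-high cells a TAM receptor with a ligand was seen in 23 of 91 and 41 of 163, and in 4 of 72 and 7 of 131 after thinning. Of the Timd4-positive Lyve1-high cells, 76.2% and 70.5% also had a Gas6 UMI, against 44.3% and 69.7% of the remaining Lyve1-high cells. At the thinned depth, 3 of 9 Timd4-positive cells in the female (33.3%, against 42.9% of the rest) and 10 of 23 in the male library (43.5%, against 61.1%) had a Gas6 UMI. The direction turned in the female library, on few cells. In the male library the shares were nearly even before thinning and lower in Timd4-positive cells after it.

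Genes with the most similar pattern were ranked by Pearson correlation of log2(CPM + 10) over 20 points, each a named class of 1 library with at least 20 cells, among 11387 genes. The points share libraries and differ in depth, so the values are descriptions. Mertk was followed by Stab1 (r = 0.966) and Trim47 (0.954), and Axl by Lipa (0.983), Apoe (0.956) and Ms4a7 (0.946). Timd4 was followed by Tslp (0.963), Fxyd2 (0.954) and C4b (0.952), and Gas6 by Cxcl12 (0.975), Pmp22 (0.961) and Agmo (0.959). The list for Pros1 was Lima1 (0.956), Cmtm3 (0.945) and Ap2a2 (0.945), and that for Mfge8 was Bmp2 (0.963), Ppm1f (0.959) and Fkbp9 (0.956).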

How the data were processed

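Live CD45+ adrenal gland cells of 1 female and 1 male library were counted by the authors with Cell Ranger 4.0.0 (per the file headers) against mm10, with DropletUtils 1.4.3 named in the submitters' processing notes, and deposited as raw UMI counts per gene and cell. No cell annotation was used here, so classes were rebuilt. Barcodes with at least 200 genes and at most 15% mitochondrial UMIs were kept, because the ceiling of 1.2% stated for the study leaves 327 female and 359 male barcodes, far fewer cells than the study states. Scrublet called 1 and 8 doublets on its own threshold and was taken not to have worked, so the 126 and 58 highest-scoring barcodes (0.8% per 1000 barcodes) were marked, which removed 123 and 53 of those that passed the other filters. Clustering used R 4.3.3, with normalisation by sctransform 0.4.2 and Seurat 5.3.0 for components and neighbours (2000 variable genes, 20 components, resolution 1, 22 clusters), with the members, the pathway genes, MHC class II genes and sex-linked genes held out. Clusters were named from marker lists, and the scoring rule for names was set after the clusters were seen. The members and lists were chosen with earlier results of these data known.

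In Python 3.11.15 (scanpy 1.11.5, numpy 2.4.6, scipy 1.17.1), UMIs were summed per class and library to CPM with exact Poisson intervals, shares were given with Clopper-Pearson intervals or after thinning to 1000 UMIs, and ratios with exact conditional binomial intervals. A gene counted as testable with 50 UMIs on 1 side of each library, and as called at 2-fold between classes in both libraries, or at 1.5-fold between the sexes and between MHC class II levels. Where 1 side had 0 UMIs, the ratio was computed against a floor of 3 counts per library. No test was made over samples, with 1 library per sex. All members are reported. Of the pathway lists, genes were named from the 2 highest and 2 lowest ratios of each list in a comparison. For similar patterns the 3 genes of highest correlation were taken, of which 1 is not reported here. The alternatives were mitochondrial ceilings of 5% and 1.2%, no doublet removal, classes by a marker gate on each cell, CPM without mitochondrial and ribosomal protein genes, leaving out the 5 highest cells, thinning, resolution 0.6, and another boundary and another set of cells for MHC class II.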

Additional observations from a re-analysis of the deposited data

How the results depend on the processing

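Members called by comparison were 4 between Lyve1-high and other macrophages, 3 between Aldh1a2-high and other macrophages, 2 between Lyve1-high and Aldh1a2-high cells, 4 between macrophages and monocytes, and between the sexes 1 in all macrophages, 1 in Lyve1-high cells and 0 in other macrophages. At a mitochondrial ceiling of 1.2%, where 5 female and 2 male Lyve1-high cells remained, these were 0, 0, 0, 1, 0, 0 and 0. At 5% the count between Lyve1-high and Aldh1a2-high cells was 0. With cells thinned to 1000 UMIs the first 4 counts were 1, 1, 0 and 2. By construction these settings leave fewer UMIs, so fewer members reach the minimum of 50. With classes by marker gate the counts between the sexes were 2, 3 and 1, and the count in other macrophages was 1 without doublet removal and 1 with cluster 11 included, an alternative chosen after seeing the data. With other macrophages alone, 1 member was called between MHC class II levels, against 0. The cause of these changes was not tested. No share over all genes is given under these alternatives, so their counts cannot be set against a general rate. At 1.2% the female to male ratio was reversed for Mertk (0.853) and Gas6 (4.07) in all macrophages, for Gas6 in other macrophages (3.33) and for Pros1 in monocytes (1.84). Also reversed were the male Axl ratio of Lyve1-high to Aldh1a2-high cells after thinning (0.957) and the male Axl ratio of low to high MHC class II with other macrophages alone (1.11). Of all ratios recomputed, 565 stayed within their counting interval, 85 moved and 6 reversed. No paired analysis was possible because each sex has 1 library.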

Other observations

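Clusters that could not be named also held members. Cluster 11, of 67 female and 139 male cells with macrophage markers, was shallow, at 788 and 670 UMIs in the median cell and a median mitochondrial share of 5.87% and 4.13%. Its Mertk level was 310.5 CPM (203 to 455) and 254 CPM (170.3 to 365), and its Axl level 812 CPM (631 to 1030) and 1008 CPM (832 to 1210), from 68 and 115 UMIs. Gas6 had 3 and 10 UMIs there.

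Cluster 15, led by Cpa3, Il1rl1 and Kit, held Mfge8 at 103 CPM (29 UMIs) in the female and 30.3 CPM (5 UMIs) in the male library. Of these UMIs, 25 lay in 23 female cells gated by mast cell markers (388 CPM, 251 to 572) and 2 in 6 male cells gated the same way (126 CPM, 15.2 to 454). Cells of this cluster gated by innate lymphoid cell markers, 48 and 35, held 2 and 1 Mfge8 UMIs.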
